A study of Xenopus laevis with 46 samples.

Results

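Homeolog pairs of which 1 copy was near silent were followed through 46 RNA-seq libraries of Xenopus laevis embryos. A pair was taken when its .L and .S entries shared a name and, over the 6 whole-embryo control libraries of stage 10.5, 1 copy averaged 10 RPKM or more (reads per kilobase of gene model, scaled to the reads of the library) and the other below 0.5 RPKM. Of 8449 pairs with both entries, 346 met this rule after name families such as wnt, sox, rpl and hox were left out, which removed 3. The pairs were thus selected on the control levels of stage 10.5, which are a description here and carry no test. In 153 of the 346 pairs the silent entry held neither a human match nor a description. It was 0 in every library of stage 10.5 and is not listed at stage 9. For those pairs the table holds a further entry whose name ends in a dot and the digit 1. Such an entry is called a dot-1 entry here and described first. The other 193 pairs hold a measured near-silent copy.

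Xenopus laevis is an allotetraploid frog whose genome came from the joining of a pair of ancestral genomes, so many genes exist as an L copy and an S copy called homeologs. After such a duplication both copies may persist with similar expression, or 1 may lose its expression, be shortened to a fragment or be lost. In the gastrula, maternal β-catenin marks the dorsal side and sets up the Spemann organizer, while Wnt, Nodal and BMP signals pattern the rest of the embryo.

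The groups were dorsal half-embryos and ventral half-embryos (5 libraries each), which per the labels' protocols were cut at stage 8 and cultured to stage 10.5, and whole embryos at stage 9 (blastula) and stage 10.5 (gastrula), all of the Nasco strain. Treated whole embryos carried a β-catenin morpholino (3 libraries at stage 10.5 and 2 at stage 9), LiCl given at the 32-cell stage (2 libraries at each stage), 100 pg siamois mRNA (2 at each stage), xWnt8 mRNA (3 at each stage) or xCer L mRNA, called Cerberus here (3 at each stage). They were set against whole embryos with no treatment named (6 at stage 10.5 and 5 at stage 9), and each treated library's label names the control of its batch, whose number is used here as the batch number. The morpholino and mRNAs were injected at the 2- to 4-cell stage, per the labels' protocols. No source used here gives the number of embryos per library or says that replicates came from separate parents, so p-values measure the spread between these libraries, which may be technical. Libraries held 2.45324e+07 to 4.50144e+07 reads in genes at stage 10.5 and 2.79335e+07 to 5.84655e+07 at stage 9, as recovered from the RPKM values.

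The half-embryos carried their labels' markers. The dorsal genes gsc.L, gsc.S, nog.L, dkk1.S and cer1.S were higher in the dorsal half-embryo of all 5 numbered pairs, with gsc.L at 114 to 176 RPKM in dorsal half-embryos and 0.997 to 5.12 RPKM in ventral half-embryos. The ventral genes szl.L, bambi.L, wnt8a.L and wnt8a.S were lower in the dorsal half-embryo of all 5. The supplied Cerberus was visible as 4247 to 5762 RPKM of cer1.S in Cerberus-injected embryos at stage 10.5, against 59.2 to 115 RPKM in control embryos. The label names the mRNA xCer L, and whether its L refers to the L copy was not determined. The entry cer1.L had 0.0646 to 0.512 RPKM in Cerberus-injected embryos and 8.63 to 28.9 RPKM in control embryos of that stage. wnt8a.L stood at 26.4 to 55.9 RPKM in Wnt8-injected embryos and 43.6 to 102 RPKM in control embryos of stage 10.5. wnt8a.S stood at 5.85 to 7.31 RPKM in Wnt8-injected embryos and 10.2 to 25.8 RPKM in those control embryos. Neither entry thus shows the injected Wnt8 mRNA at that stage. No entry for the supplied siamois mRNA is given here.

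The entries that were blank for a copy did not hold a measurement. The table of stage 10.5 holds 1542 entries with neither human match nor description, all of them 0 in all 29 libraries of that stage, and 0 of them are listed at stage 9. Of the 571 pairs with exactly 1 blank entry, 563 also have a dot-1 entry of the same base name, and of the 7598 pairs with no blank entry 0 have one. All 153 member pairs with a blank entry have such a dot-1 entry. It averaged 10 RPKM or more in 99 of them, 0.5 to below 10 RPKM in 43 and below 0.5 RPKM in 11, with a median of 17.9 RPKM. In 149 of the 153 the dot-1 entry has the same human match as the named copy. Whether a dot-1 entry is the missing L or S copy is not stated in the sources used here.

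Of the 10 most abundant expressed copies only LOC100490725.L has a measured near-silent partner, and the others belong to this class. The RNA-binding protein gene hnrnpab.S averaged 796 ± 68.9 RPKM in the 6 control libraries, and hnrnpab.1 averaged 987 ± 81.6 RPKM (SD, n = 6). For alyref, which encodes an mRNA export adaptor, alyref.L averaged 440 ± 21.4 RPKM and alyref.1 410.5 ± 21.7 RPKM. For mcm7, a subunit of the replicative helicase, mcm7.L averaged 553 ± 33.3 RPKM and mcm7.1 173 ± 20.02 RPKM. The same pattern held for nucleolin (Xetrov90014636m.S 428 RPKM, Xetrov90014636m.1 351 RPKM), hnrnpa0 (hnrnpa0.S 249 RPKM, hnrnpa0.1 584 RPKM), the nuclear matrix protein gene matr3 (matr3.S 161 RPKM, matr3.1 17.2 RPKM) and Xetrov90002209m, a match to RNA cyclase-like RCL1 (Xetrov90002209m.L 193 RPKM, Xetrov90002209m.1 53.2 RPKM). The zinc finger protein gene zswim4 is another, with zswim4.L at 157 RPKM and zswim4.1 at 64.3 RPKM. In 46 of the 153 pairs the dot-1 entry stood above the named copy, and the median ratio of dot-1 entry to named copy was 0.591.

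**Figure D1:**
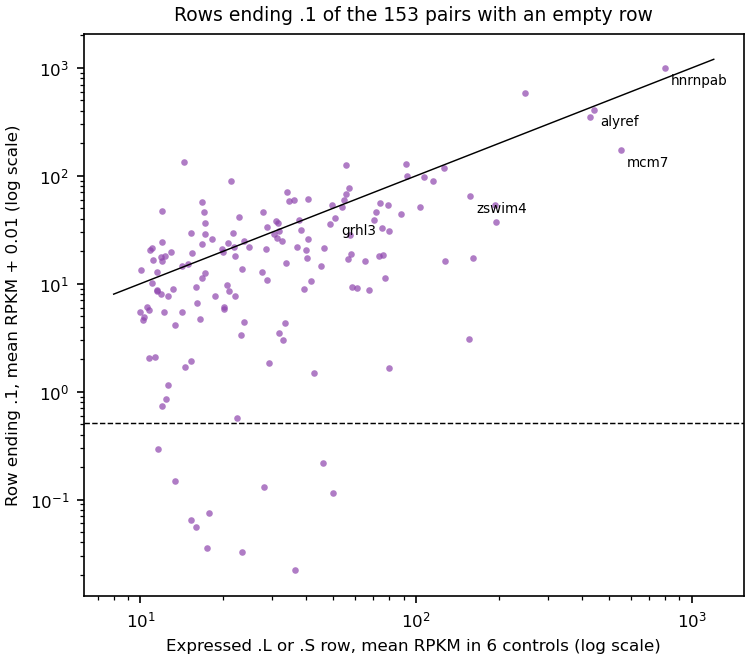
Each point is 1 of the 153 pairs with a blank entry. The horizontal axis gives the mean RPKM of the named .L or .S copy in the 6 control libraries of stage 10.5 and the vertical axis the mean RPKM + 0.01 of the dot-1 entry, both on log scales. The solid line marks equal values and the dashed line 0.5 RPKM plus 0.01. Of the points 46 lie above the line of equality and 11 below 0.5 RPKM.

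In the 193 measured pairs the near-silent copy had a median of 0.0509 RPKM in stage 10.5 control embryos and its partner a median of 19.1 RPKM. The near-silent copy amounted to a median of 0.260% of its partner, under 1% in 155 pairs and at most 4.96%. Reads recovered from the RPKM steps give a median of 33 reads over all 6 control libraries for 156 near-silent copies. For the expressed copies the median was 11532 reads. Recovery needed a value above 0 in at least 5 libraries, so the median of 33 leaves out copies seen in the fewest libraries. A value of 3 reads is the limit that a count of 0 allows, so for many of these copies levels below a few hundredths of an RPKM are at the edge of detection. For 7 pairs the silent copy was 0 in all 29 libraries of stage 10.5 although its entry carries a description, and 5 were 0 or not listed in all 46 libraries.

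**Figure D2:**
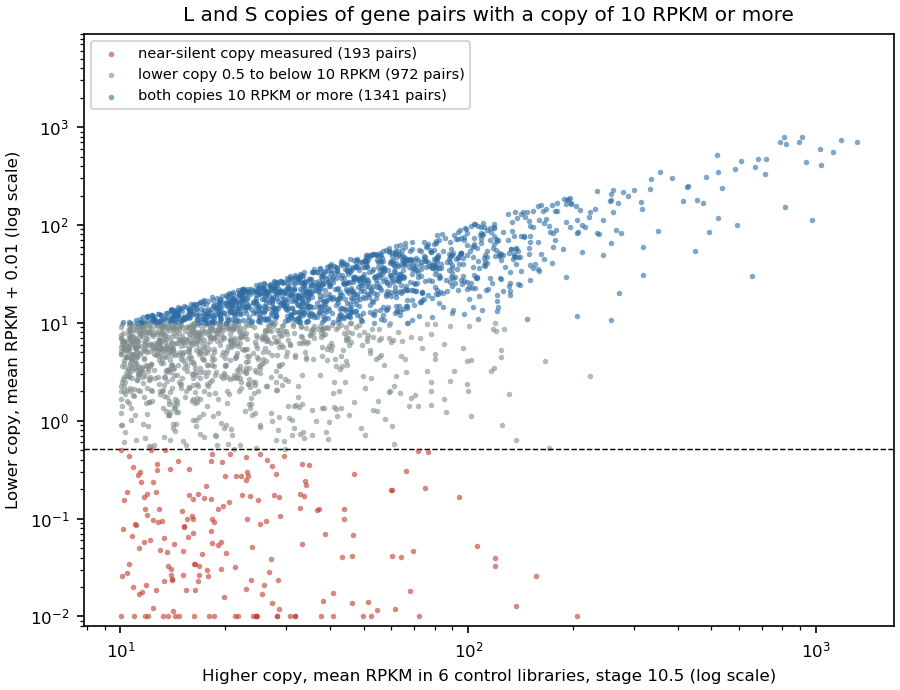
Each point is 1 gene pair with no blank entry and a copy of 10 RPKM or more. The horizontal axis gives the higher copy and the vertical axis the lower copy + 0.01, both as mean RPKM in the 6 control libraries of stage 10.5 on log scales, and the dashed line marks 0.5 RPKM plus 0.01. The 193 pairs with a measured near-silent copy lie below the line, apart from 972 pairs with a lower copy of 0.5 to below 10 RPKM and 1341 pairs with both copies of 10 RPKM or more.

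Pairs at the edges of the rule show how it divides a continuous range. Just inside the lower limit were LOC100497699-like, a match to a nucleotide sugar transporter, whose S copy averaged 0.498 RPKM, and mrpl42, whose L copy averaged 0.494 RPKM. Just outside were MGC89520 at 0.501 RPKM and dlc at 0.508 RPKM. At the upper limit smim15 (10.004 RPKM) and hyou1 (10.01 RPKM) were just inside, LOC100127812 (9.96 RPKM) and tfb2m (9.93 RPKM) just outside.

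The expressed copies cover general cell functions. By the role read from each description, 48 of the 193 pairs belong to metabolism, 29 to RNA processing and translation, 26 to signalling and receptors, 19 to transport, 14 to transcription and chromatin, 12 to protein turnover, 7 to the cytoskeleton, 5 to the cell cycle and 33 to none of these. RNA and translation had the highest median level of its expressed copies, 37.1 RPKM, against 14.2 to 25.1 RPKM in the other classes. Its most abundant members were tyw3.L, for a tRNA-modifying enzyme, at 157 ± 40.5 RPKM (tyw3.S 0.0159 RPKM), exosc10.L, the nuclease of the nuclear RNA exosome, at 137 ± 7.44 RPKM (exosc10.S 0.0027 RPKM), and mrpl44.S, a mitochondrial ribosomal protein gene, at 119 ± 19.5 RPKM (mrpl44.L 0.0229 RPKM; SD, n = 6). The splicing factor crnkl1.S averaged 74.8 RPKM and crnkl1.L 0.195 RPKM, and the N6-methyladenosine reader ythdc1.L 94.0 RPKM and ythdc1.S 0.155 RPKM.

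Other classes held single genes of similar abundance. The highest expressed copy of all measured pairs was LOC100490725.L, a match to the glycogen-binding protein STBD1, with 217, 203, 211, 219.9, 189 and 195 RPKM in the 6 control libraries, while LOC100490725.S was 0 in each. In metabolism the phospholipase D family gene pld3.L averaged 106 RPKM (pld3.S 0.0421 RPKM), acbd6.S, an acyl-CoA-binding protein gene, 76.5 RPKM (acbd6.L 0.471 RPKM), and the triglyceride synthesis enzyme gene dgat2.L 60.5 RPKM. In transport LOC101731806.S, a match to the nuclear pore protein TPR, averaged 119 RPKM (LOC101731806.L 0.0298 RPKM), and kdelr3.L, which returns proteins to the endoplasmic reticulum, 68.0 RPKM. The signalling gene arl2bp.L, encoding a partner of the small GTPase Arl2, averaged 72.0 RPKM with arl2bp.S at 0. The DNA repair enzyme parp2.S averaged 59.8 RPKM, the NF-κB subunit rela.L 32.8 RPKM and the borealin match cdca9.S, of the chromosomal passenger complex, 66.2 RPKM.

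Which of the copies was near silent was not part of the rule. The S copy was the near-silent one in 114 of the 193 measured pairs (59.1%) and the L copy in 79. Among the 972 pairs with a lower copy of 0.5 to below 10 RPKM the S copy was the lower one in 57.8%, and among the 1341 pairs with both copies of 10 RPKM or more in 52.8%. These shares are set side by side without a test. For pairs with a blank entry the S entry was the blank one in 105 and the L entry in 48, which describes the naming of entries and not a level.

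The near-silent copies' gene models were often shorter than those of their partners. Model lengths implied by the RPKM steps were recovered for both copies in 158 of the 193 pairs. Recovery needed a value above 0 in at least 5 libraries of a stage, which leaves out copies seen in the fewest libraries. The near-silent model was the shorter in 109 (69.0%) and under 50% of its partner's length in 42 (26.6%), with a median ratio of 0.765. In the pairs with a lower copy of 0.5 to below 10 RPKM the lower copy's model was the shorter in 43.0% and under 50% in 7.41%, and in pairs with both copies of 10 RPKM or more these shares were 40.0% and 4.62%. LOC101731806.L spans 1272 bases against 7228 for LOC101731806.S, mrpl42.L 261 bases against 1783 for mrpl42.S, and dpy19l4-like.L 1362 bases against 4610 for dpy19l4-like.S. Others are of like length, such as pld3.S with 2499 bases and pld3.L with 2449. A shorter model collects fewer reads at the same RPKM, and the part of model completeness in the low values was not tested.

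**Figure D3:**
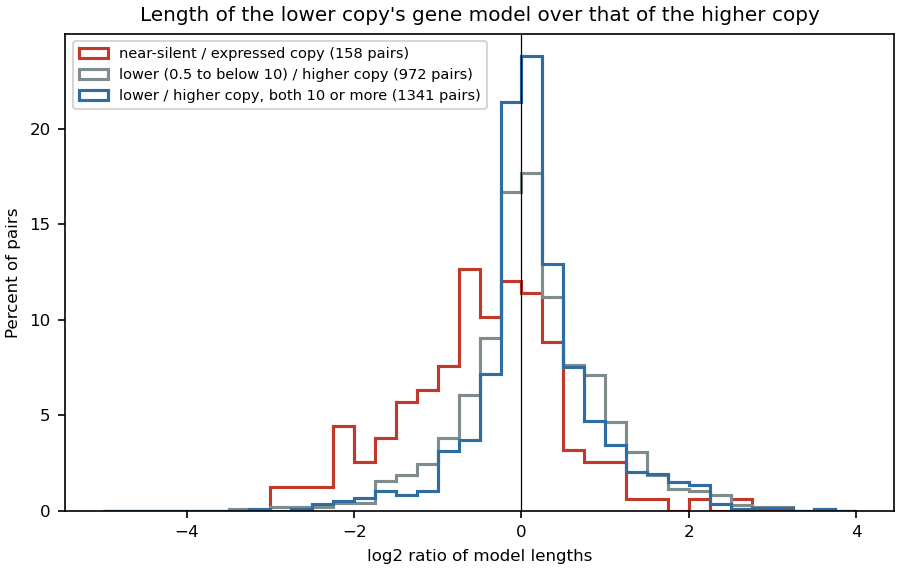
Outlines are histograms of the log2 ratio of the lower copy's model length to the higher copy's, as percent of pairs, for 158 pairs with a near-silent copy, 972 pairs with a lower copy of 0.5 to below 10 RPKM and 1341 pairs with both copies of 10 RPKM or more. The outline of the near-silent copies extends further to the left of 0, where 69.0% of them lie.

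For 186 pairs both entries carry a human match, and in 7 of them the matches differ. Among these, the expressed cdx1.S matches CDX2 while cdx1.L matches CDX1. Further examples were LOC100124772 (RAB6A for the expressed copy, RAB6B for the near-silent one), rilp (RILP and RILPL1), serp2 (SERP1 and SERP2), taf4b (TAF4 and TAF4B) and znf383 (ZNF329 and ZNF534). In these 7 pairs the shared name may join paralogs, which was not tested. In the RefSeq annotation of the Xenopus_laevis_v10.1 assembly, a later build than the one named in the tables, the expressed copy's symbol was found for 138 of the 193 pairs and the near-silent copy's for 74. Of those 74, 72 are listed as protein coding, stk25.L as a pseudogene and letmd1.S as a miscellaneous RNA. Among the measured pairs the near-silent symbol alone was found for 0 and the expressed symbol alone for 64. Of the 153 pairs with a blank entry, the expressed copy's symbol was found for 102 and the blank copy's for 100. Whether those blank copies correspond to the dot-1 entries was not tested.

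In libraries that the rule did not use most near-silent copies also stayed below 0.5 RPKM. Of the 193 near-silent copies 180 are listed at stage 9, where 169 averaged below 0.5 RPKM in control embryos. In the dorsal half-embryos 180 of 193 averaged below 0.5 RPKM and in the ventral half-embryos 178. In treated embryos of stage 10.5 the number below 0.5 RPKM was 185 (β-catenin morpholino), 187 (LiCl), 185 (siamois), 185 (Wnt8) and 185 (Cerberus), and at stage 9 it was 168 to 171 of the 180 listed. The highest mean of any near-silent copy in any group was 2.82 RPKM, of scyl3.S in morphants of stage 9. Stages were deposited as separate tables, so levels across them are a description. No such share was taken for other entries below 0.5 RPKM in stage 10.5 controls. The counts are therefore not read as particular to these copies.

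In single libraries 128 near-silent copies stayed below 0.5 RPKM wherever they were listed, 65 reached 0.5 RPKM, 25 reached 1 RPKM and 5 reached 2 RPKM. The copy that averaged highest outside the stage 10.5 controls was scyl3.S, whose product is a pseudokinase bound to ezrin. In batch 2 of stage 10.5 it had 3.10 RPKM in the morphant, 2.67 RPKM in the siamois-injected and 2.62 RPKM in the control library, and at most 0.0841 RPKM in the other 16 whole-embryo libraries of that stage. At stage 9 it had 5.57, 5.27 and 3.92 RPKM in the morphant, LiCl and siamois libraries of batch 4 and 5.36 RPKM in its control, and at most 0.117 RPKM in the other 13 libraries. Among half-embryos it had 2.54 RPKM in the dorsal and 2.26 RPKM in the ventral half-embryo numbered 2, and 1.11 RPKM in the dorsal and 1.35 RPKM in the ventral half-embryo numbered 1. The high libraries are those of a batch or half-embryo number, treated and control alike, and scyl3.L was 10.5 RPKM or more in every library.

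g0s2.S, a copy of the lipase inhibitor gene G0S2, showed the same kind of split. In batch 2 of stage 9 it had 5.51 RPKM in the Wnt8-injected, 2.62 RPKM in the Cerberus-injected and 2.65 RPKM in the control library, and at most 0.151 RPKM in the other 14. Its partner g0s2.L stood at 1.44, 1.09 and 0.651 RPKM in those 3 libraries, below g0s2.S. In stage 10.5 controls 1 to 6 g0s2.L had 1.89, 5.43, 1.75, 21.6, 3.49 and 36.3 RPKM. Its mean of 11.7 RPKM thus met the rule through controls 4 and 6. In stage 9 controls g0s2.L averaged 0.867 RPKM. Wnt8-injected embryos of stage 9 were the 1 group in which a near-silent copy averaged above its partner and reached 1 RPKM, with 1.86 RPKM for g0s2.S. The other crossings in single libraries, of cdx1, rgs16 and LOC101731538-like at stage 9, were all between values of at most 0.104 RPKM.

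gpx1.S, a copy of a glutathione peroxidase gene, had 5.18 RPKM in the dorsal and 5.02 RPKM in the ventral half-embryo numbered 4. In the other 8 half-embryos it had at most 0.751 RPKM. In whole embryos of stage 10.5 it had 0.648 to 0.926 RPKM in batch 6 and at most 0.445 RPKM in the other batches. At stage 9 it had 0.719 to 0.867 RPKM in batch 3 and at most 0.142 RPKM in the other batches. lzic.S, whose product belongs to a β-catenin-interacting family, had 1.15, 3.21 and 2.56 RPKM in the morphant, LiCl and siamois libraries of batch 4 at stage 9 and 1.99 RPKM in its control, and at most 0.852 RPKM elsewhere at that stage. popdc3.L, of the Popeye family of membrane proteins, reached 0.997 to 1.35 RPKM in the same batch and at most 0.788 RPKM in the other libraries of stage 9. Over the 5 control libraries of stage 9, g0s2.S had 152 reads, lzic.S 52 and popdc3.L 443.

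Such splits by batch also occurred in the rest of the tables, at shares set side by side here without a test. Of 43 near-silent copies that reached 0.5 RPKM in a half-embryo, both half-embryos of 1 number stood above the other 8 in 24 (55.8%), against 46.5% of 3217 entries that were likewise below 0.5 RPKM in stage 10.5 controls. At stage 9 all libraries of 1 batch stood above all others in 24 of 49 near-silent copies (49%), against 41.9% of such low entries, and at stage 10.5 in 10 of 39 (25.6%), against 26.2%.

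**Figure D4:**
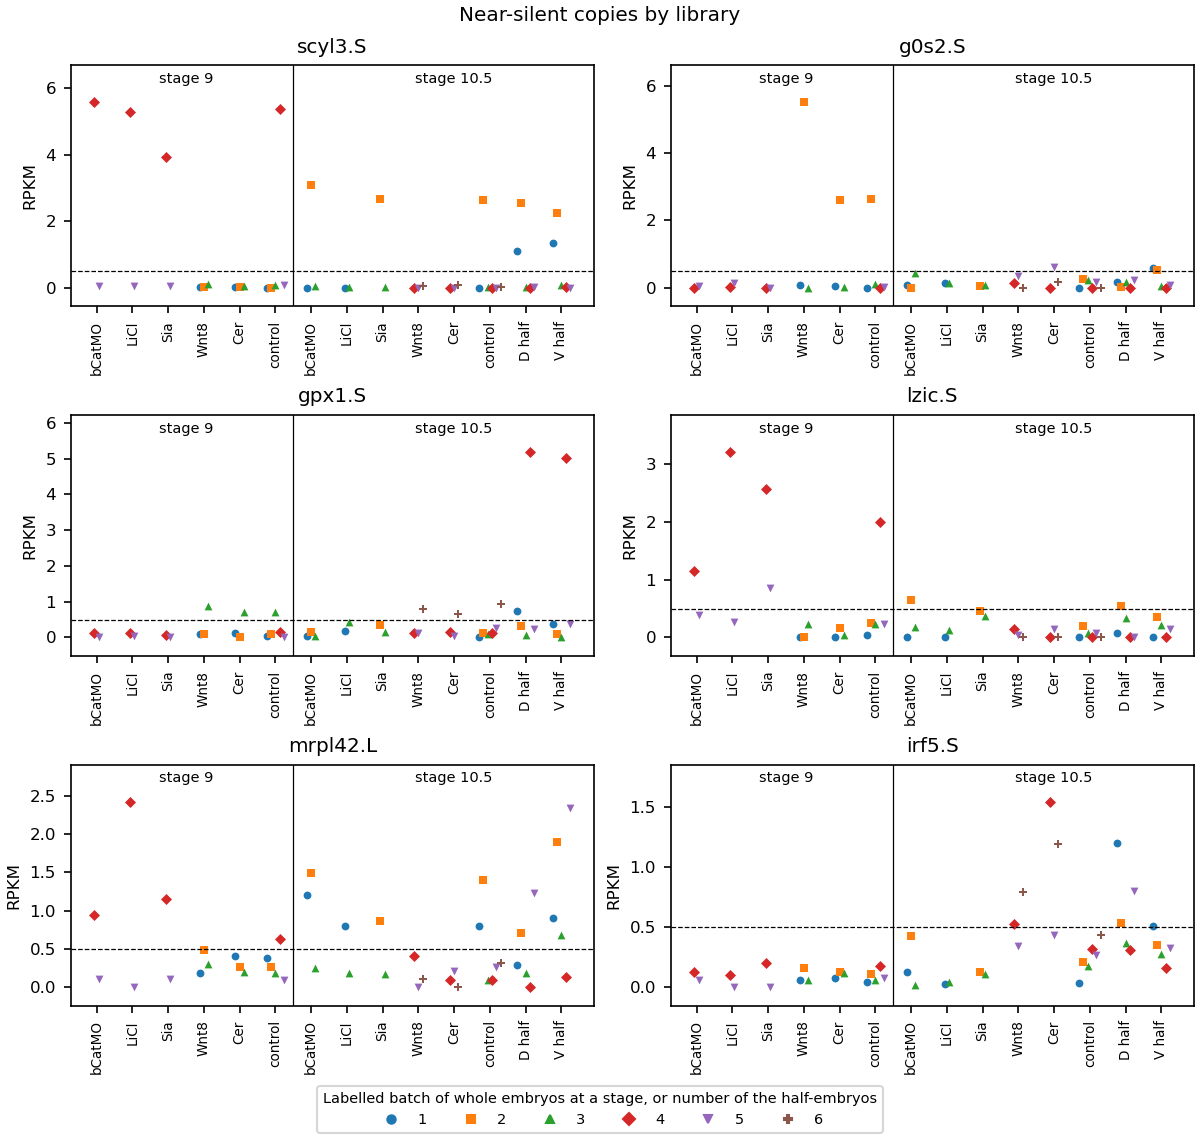
Each point is 1 library, with RPKM on the vertical axis and groups on the horizontal axis, stage 9 left and stage 10.5 right of the line, for 6 near-silent copies. Colour and shape give the labelled batch, numbered within a stage, or the number of the half-embryos, and the dashed line marks 0.5 RPKM. scyl3.S, g0s2.S, gpx1.S and lzic.S are high in the libraries of a few batches or half-embryo numbers. mrpl42.L is lower in each dorsal half-embryo than in the ventral one of the same number. irf5.S stands at 0.434 to 1.54 RPKM in Cerberus-injected embryos of stage 10.5.

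Few copies of these pairs were called between dorsal and ventral half-embryos in the fit that leaves out the half-embryo numbers. By limma on log2(RPKM + 0.5), with p-values adjusted by Benjamini-Hochberg over all 18448 entries tested and a call at an adjusted p below 0.05, 1 of 346 expressed copies was called, against 0.678% of all entries and 0.884% of entries of 10 RPKM or more. The median log2 difference was -0.02 both for the expressed copies of measured pairs and for all entries. In such bulk libraries fewer cells of a type and less RNA per cell cannot be told apart. Of the 193 expressed copies of measured pairs 0 were called by limma, 4 had an unadjusted p below 0.05 and voom on recovered reads called 0. Same-numbered half-embryos deviated together, a pairing that these counts ignore. With the number as a block 7 of 346 expressed copies and 1 near-silent copy were called, against 2.29% of all entries. Of the 193 expressed copies of measured pairs 3 were called with the block.

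The called gene was grhl3.L, of the Grainyhead family of epidermal transcription factors. It had 39.7, 36.2, 43.8, 32.3 and 26.7 RPKM in dorsal half-embryos 1 to 5, against 157.7, 88.7, 78.2, 77.1 and 61.3 RPKM in ventral half-embryos 1 to 5. The dorsal value was lower in all 5 pairs and the groups did not overlap. The log2 difference was -1.30 ± 0.23 (SE, adjusted p = 0.0225; with the block 0.00446). Its entry grhl3.1 averaged 36.8 ± 7.96 RPKM in dorsal and 77.0 ± 31.9 RPKM in ventral half-embryos (SD, n = 5), a log2 difference of -0.99 ± 0.26 that was called only with the block (adjusted p = 0.23 and 0.0104). Without dorsal half-embryo 2, 4 or 5 or ventral half-embryo 2 or 4, or without the filter on low values, grhl3.L was not called. These repeats were fitted without the block, and none was run with it.

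Several other expressed copies were called only with the block. LOC101731538-like.S, a match to the N-acetyltransferase NAT8B and the single member listed in the authors' deposited signature table, had 98.4, 33.5, 17.8, 24.5 and 35.7 RPKM in dorsal half-embryos 1 to 5 and 37.7, 10.9, 4.31, 5.59 and 12.7 RPKM in ventral half-embryos 1 to 5. It was higher in the dorsal half-embryo of every pair although the groups overlapped, and its log2 difference was 1.67 ± 0.56 (adjusted p = 0.626; with the block 0.00036). The protease inhibitor gene a2m.S averaged 55.5 ± 36.5 RPKM in dorsal and 22.4 ± 9.61 RPKM in ventral half-embryos (log2 difference 1.19 ± 0.36, adjusted p = 0.423; with the block 0.0013). admp2.L, an anti-dorsalizing BMP ligand gene, averaged 10.6 ± 3.54 RPKM in dorsal and 21.1 ± 8.40 RPKM in ventral half-embryos (-0.94 ± 0.30, adjusted p = 0.555; with the block 0.000674). cerk.S (ceramide kinase), rhpn2.L (rhophilin-2) and the immediate early gene ier2.L were also called with the block, higher in dorsal half-embryos, with log2 differences of 0.54, 0.50 and 0.38. In each of these copies all 5 pairs had the same direction. The dot-1 entry cerk.1 had 3.26, 1.0312, 0.345, 1.29 and 1.03 RPKM in dorsal half-embryos 1 to 5. In ventral half-embryos 1 to 5 it had 3.94, 1.0313, 0.603, 1.69 and 1.46 RPKM. It thus went the other way from cerk.S, though by very little in number 2. The entries rhpn2.1 and ier2.1 were higher in the dorsal half-embryo of every pair, like their named copies. Differences between these named copies and their dot-1 entries were not tested.

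Near-silent copies could hardly be tested, as 9 of 193 passed the filter of 1 RPKM in at least 2 half-embryo libraries, and those 9 passed through their high libraries. limma called 0 of the 9, with 0 at an unadjusted p below 0.05 and 0 by voom. With the block mrpl42.L, the short copy of a mitochondrial ribosomal protein gene, was called, at 0.292, 0.704, 0.180, 0 and 1.23 RPKM in dorsal half-embryos 1 to 5 and 0.899, 1.89, 0.681, 0.137 and 2.34 RPKM in ventral half-embryos 1 to 5. It was lower in the dorsal half-embryo of every pair, with a log2 difference of -0.74 ± 0.11 with the block. It reached 1 RPKM in ventral half-embryos 2 and 5 but only in number 5 of the dorsal ones. It thus passed the filter through the group in which it is high. mrpl42.L is therefore given as a description, and its call is not read as a test. Its partner mrpl42.S averaged 12.9 ± 2.54 RPKM in dorsal and 12.7 ± 2.32 RPKM in ventral half-embryos. The change of the difference between copies was called for 0 of 9 member pairs tested, against 0.193% of 3622 pairs (0 of the 9 at an unadjusted p below 0.05). With the block it was called for mrpl42 alone, against 1.13% of pairs (log2 of L over S -0.76 ± 0.08), which is likewise a description. Only 142 reads of mrpl42.L were recovered over all 29 libraries of stage 10.5.

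Dorsal and ventral ranges lay apart in 2 of 176 near-silent copies with reads in a half-embryo (1.14%), against 1.02% of all entries above 0 in a half-embryo. cdx1.L had 0.256 to 0.523 RPKM in dorsal and 0.150 to 0.240 RPKM in ventral half-embryos. Its expressed partner cdx1.S, a posterior homeobox gene, averaged 9.98 ± 2.997 RPKM in dorsal and 13.8 ± 8.47 RPKM in ventral half-embryos and was lower dorsally in 4 of 5 pairs. cdkal1.L, a copy of a tRNA-modifying enzyme gene named after its values were seen, had 0.346 to 0.415 RPKM in dorsal and 0.117 to 0.333 RPKM in ventral half-embryos.

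Treatments were compared with control embryos within each stage, with the labelled batch in the fit. The stage 10.5 control libraries also chose the pairs, so contrasts with them are not independent of the choice, and all 5 treatments of a stage share those controls. The members' shares of calls lay close to those of other abundant entries. Of the calls named for the treatments, those kept without the batch term were mycbp.L with LiCl, grhl3.L, cdx1.S, zfp36l1.L and MGC76328.L with siamois and LOC101731538-like.S, zswim4.L, lpar2.L and MGC76328.L with Cerberus, all at stage 10.5. Expressed copies called at stage 10.5 numbered 33 of 346 in morphants (9.54%), against 7.15% of all entries and 9.54% of entries of 10 RPKM or more. They numbered 64 in LiCl-treated embryos (18.5%), against 14.2% and 18.9%, and 11 in siamois-injected embryos (3.18%), against 4.16% and 3.74%. In Wnt8-injected embryos 1 was called (0.289%), against 0.462% and 0.653%, and in Cerberus-injected embryos 15 (4.34%), against 4.54% and 5.07%. At stage 9 there were 3 in morphants (0.867%), against 0.696% of all entries and 1.06% of entries of 10 RPKM or more. They numbered 2 with LiCl (0.578%), against 0.448% and 0.692%, and 1 with siamois (0.289%), against 0.281% and 0.192%. With Wnt8 there were 0, against 0.108% and 0.0769%, and with Cerberus 0, against 0.399% and 0.564%. For Wnt8 and Cerberus at stage 9 limma gave 26 and 15 expressed copies at an unadjusted p below 0.05, and voom called 0 and 4. These counts pool measured pairs with pairs that have a blank entry. At stage 10.5 the 193 expressed copies of measured pairs gave 18 calls in morphants (9.33%), 30 with LiCl (15.5%) and 5 with siamois (2.59%). With Wnt8 they gave 0 calls and with Cerberus 7 (3.63%).

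**Figure D5:**
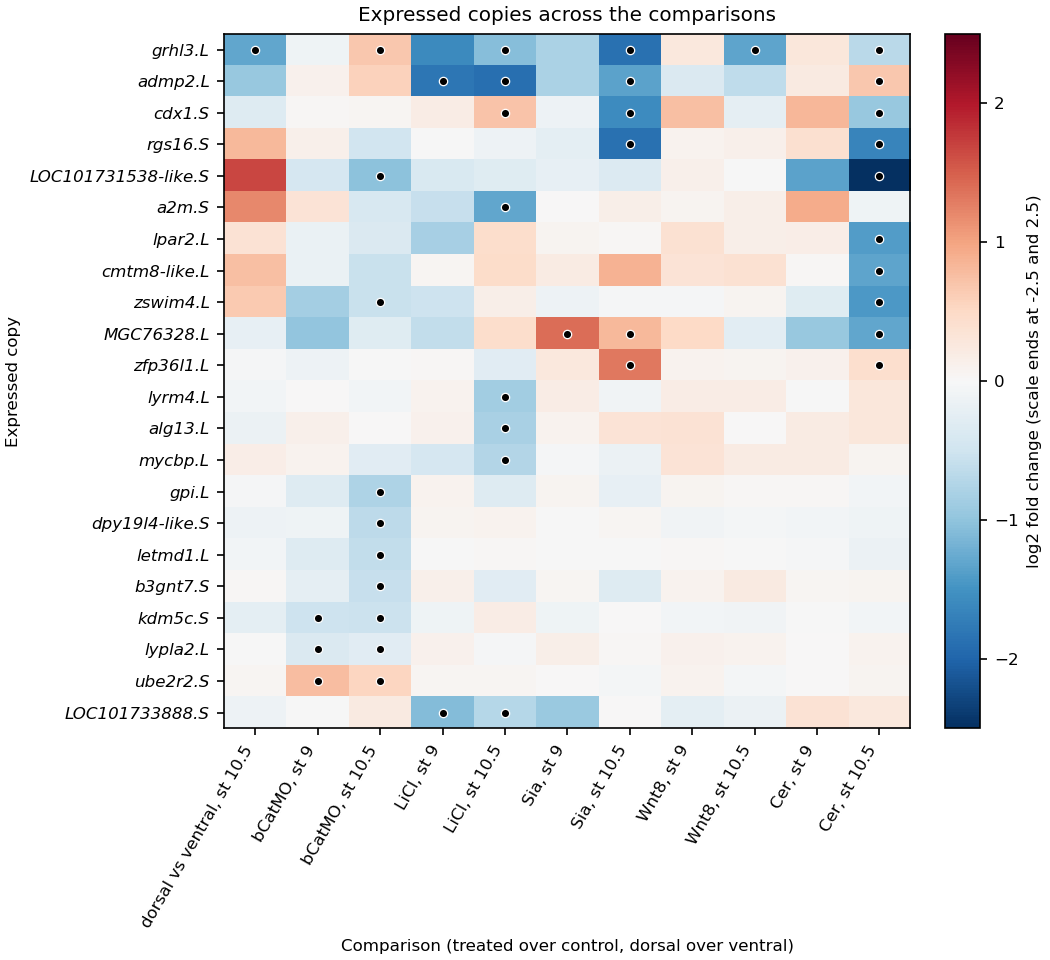
Colours give log2 fold changes on the log2(RPKM + 0.5) scale for 22 expressed copies (vertical axis) in 11 comparisons (horizontal axis, treated over control or dorsal over ventral, stage 9 left of stage 10.5 within each treatment), and dots mark an adjusted p below 0.05 by limma. grhl3.L carries the most dots, and the darkest cell is LOC101731538-like.S in Cerberus-injected embryos at -4.30.

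β-catenin morphants of stage 10.5 had 11 expressed copies higher and 22 lower, against 1.98% of all entries higher and 5.17% lower. The largest fall was in LOC101731538-like.S, at 9.62, 11.2 and 8.33 RPKM in morphants 1 to 3 and 14.9, 33.8 and 16.0 RPKM in the control embryos of their batches, with no overlap (log2 fold change -1.02 ± 0.23, SE, adjusted p = 0.0211). The glycolytic enzyme gene gpi.L had 26.8, 18.6 and 18.5 RPKM in morphants and 40.2, 36.6 and 32.0 RPKM in control embryos (-0.77 ± 0.10, adjusted p = 0.000534). dpy19l4-like.S, a match to a C-mannosyltransferase gene, fell by 0.65 (adjusted p = 0.000294), letmd1.L, whose product is mitochondrial, by 0.62 (adjusted p = 0.000508) and the glycan enzyme gene b3gnt7.S by 0.57 (adjusted p = 0.01), each lower in all 3 batches. grhl3.L was higher, with 55.5, 106.6 and 83.7 RPKM in morphants and 34.1, 65.9 and 54.8 RPKM in control embryos (0.66 ± 0.17, adjusted p = 0.0326), and overlapped its controls. The dot-1 entries of these genes did not all move alike. gpi.1 had 16.9, 14.9 and 17.8 RPKM in morphants and 13.6, 12.5 and 16.7 RPKM in control embryos (0.21 ± 0.08, adjusted p = 0.161), higher in each batch, where gpi.L was lower. b3gnt7.1 had 2.08, 2.28 and 2.26 RPKM in morphants and 1.62, 2.12 and 1.80 RPKM in control embryos (0.21 ± 0.11, adjusted p = 0.287), while grhl3.1 was higher (0.62 ± 0.14, adjusted p = 0.0245). The differences between named copy and dot-1 entry were not tested. The count of 33 was 13 without morphant 2, 52 without morphant 1, 21 without morphant 3 and 15 or 17 without control 3 or 2. LOC101731538-like.S was not called without morphant 2 or 3 or control 2 or 3, b3gnt7.S without morphant 2, and grhl3.L without morphant 1 or 2 or control 1, 2 or 3.

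At stage 9 morphants showed 3 calls. The ubiquitin-conjugating enzyme gene ube2r2.S had 28.5 and 33.7 RPKM in morphants and 14.6 and 22.3 RPKM in the control embryos of their batches (0.76 ± 0.10, adjusted p = 0.00412). The histone demethylase gene kdm5c.S had 27.5 and 25.2 RPKM in morphants and 35.5 and 40.5 RPKM in control embryos (-0.52 ± 0.10, adjusted p = 0.0334). The depalmitoylating enzyme gene lypla2.L had 42.0 and 27.0 RPKM in morphants and 52.0 and 36.6 RPKM in control embryos (-0.37 ± 0.07, adjusted p = 0.0358). The groups did not overlap for ube2r2.S and kdm5c.S. The same 3 copies were called in morphants of stage 10.5, at log2 fold changes of 0.53 (ube2r2.S), -0.55 (kdm5c.S) and -0.28 (lypla2.L). At stage 9 their dot-1 entries gave 0.11 for ube2r2.1 (adjusted p = 1), -0.30 for kdm5c.1 (adjusted p = 0.206) and 0.0581 for lypla2.1 (adjusted p = 1). The stage 9 count was 0 without control 4 and 1 without control 1 or 5 or either morphant.

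LiCl, which inhibits GSK3 and so raises β-catenin, gave 17 expressed copies higher and 47 lower at stage 10.5, against 3.8% of all entries higher and 10.4% lower. admp2.L had 3.16 and 10.7 RPKM in LiCl-treated embryos and 15.9 and 32.9 RPKM in the control embryos of their batches (-1.88 ± 0.20, adjusted p = 0.00033), with no overlap. At stage 9 it had 1.18 and 1.54 RPKM against 7.46 and 4.83 RPKM in control embryos (-1.81 ± 0.26, adjusted p = 0.0191). lyrm4.L, for iron-sulfur cluster assembly, had 6.70 and 9.11 RPKM in LiCl-treated and 12.9 and 17.8 RPKM in control embryos (-0.87 ± 0.09, adjusted p = 0.000243). a2m.S fell by 1.30 (adjusted p = 0.0203), grhl3.L by 1.06 (adjusted p = 0.00491), the glycosylation gene alg13.L by 0.81 (adjusted p = 0.00379) and the MYC-binding protein gene mycbp.L by 0.74 (adjusted p = 0.00154), each in both batches. Of these genes grhl3 and mycbp have a dot-1 entry, which gave -0.59 for grhl3.1 (adjusted p = 0.0372) and -0.39 for mycbp.1 (adjusted p = 0.0781). At stage 9 LOC101733888.S, which has no human match, had 0.677 and 0.0858 RPKM in LiCl-treated and 1.95 and 0.779 RPKM in control embryos (-1.09 ± 0.20, adjusted p = 0.0491) and was not called when any 1 LiCl or control library was left out.

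The LiCl groups hold 2 libraries each. The stage 10.5 count of 64 was 11 without LiCl library 1, 32 without LiCl library 2, 42 without control 1 and 28 without control 3. a2m.S was not called without LiCl library 1 or control 3, grhl3.L without LiCl library 1 and alg13.L without LiCl library 2. At stage 9 admp2.L was not called without either LiCl library or control 4.

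Siamois, a homeobox factor that acts below β-catenin in the organizer, gave 4 expressed copies higher and 7 lower at stage 10.5, against 2.34% of all entries higher and 1.83% lower. rgs16.S, a regulator of G-protein signalling, had 3.75 and 4.00 RPKM in siamois-injected embryos and 15.4 and 16.0 RPKM in the control embryos of their batches (-1.87 ± 0.27, adjusted p = 0.00115). grhl3.L had 13.5 and 19.98 RPKM in siamois-injected and 65.9 and 54.8 RPKM in control embryos (-1.87 ± 0.19, adjusted p = 7.55e-05). cdx1.S had 2.38 and 1.91 RPKM in siamois-injected and 11.8 and 5.38 RPKM in control embryos (-1.57 ± 0.20, adjusted p = 0.00056), and cdx1.L had 0.0809 and 0.0921 RPKM against 0.325 and 0.168 RPKM. None of these ranges overlapped. zfp36l1.L, whose product binds AU-rich mRNA elements, had 29.8 and 27.2 RPKM in siamois-injected and 11.2 and 10.9 RPKM in control embryos (1.31 ± 0.09, adjusted p = 2.19e-06). MGC76328.L, a match to the antiproliferative BTG3, had 198 and 176 RPKM in siamois-injected and 118 and 99.9 RPKM in control embryos (0.82 ± 0.16, adjusted p = 0.00996). At stage 9 it had 95.9 and 67.6 RPKM against 47.1 and 19.3 RPKM in control embryos (1.40 ± 0.24, adjusted p = 0.0334). admp2.L fell by 1.34 (adjusted p = 0.00164). The dot-1 entries gave -1.44 for grhl3.1 (adjusted p = 0.000218), 0.16 for zfp36l1.1 (adjusted p = 0.442) and 0.41 for MGC76328.1 (adjusted p = 0.416) at stage 10.5, and 0.16 for MGC76328.1 at stage 9 (adjusted p = 1). Without siamois library 1 the count of 11 was 6. MGC76328.L was not called at stage 10.5 without either siamois library or control 3, and at stage 9 without either siamois library or control 3, 4 or 5. admp2.L was not called at stage 10.5 without siamois library 2.

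Wnt8-injected embryos of stage 10.5 had 1 call among the members, grhl3.L. It had 21.0, 17.5 and 20.6 RPKM in Wnt8-injected embryos and 42.6, 52.4 and 55.5 RPKM in the control embryos of their batches, with no overlap (-1.32 ± 0.17, adjusted p = 0.00467). grhl3.1 was also lower, with 18.6, 12.6 and 12.6 RPKM in Wnt8-injected and 34.7, 36.4 and 36.3 RPKM in control embryos (-1.28 ± 0.14, adjusted p = 0.00252).

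Cerberus, a secreted inhibitor of Nodal, Wnt and BMP ligands, gave 5 expressed copies higher and 10 lower at stage 10.5, against 1.65% of all entries higher and 2.9% lower. LOC101731538-like.S had 0.235, 0.126 and 3.37 RPKM in Cerberus-injected embryos and 13.4, 18.9 and 50.1 RPKM in the control embryos of their batches (-4.30 ± 0.23, adjusted p = 4.31e-07), while LOC101731538-like.L was 0 in all 6. zswim4.L, a zinc finger protein gene, had 79.7, 48.5 and 87.0 RPKM in Cerberus-injected and 189.8, 172 and 210.4 RPKM in control embryos (-1.44 ± 0.12, adjusted p = 1.26e-05). The lysophosphatidic acid receptor gene lpar2.L had 7.27, 5.09 and 9.29 RPKM in Cerberus-injected and 19.1, 16.1 and 23.0 RPKM in control embryos (-1.39 ± 0.15, adjusted p = 9.87e-05). All 3 were lower in each Cerberus library than in any control library of those batches. rgs16.S fell by 1.64 (adjusted p = 0.000716), cmtm8-like.L, of a membrane protein family, by 1.32 (adjusted p = 0.00195) and MGC76328.L by 1.30 (adjusted p = 7.63e-05). The dot-1 entries gave -2.27 for zswim4.1 (adjusted p = 5.57e-07) and -1.22 for MGC76328.1 (adjusted p = 0.00186). lpar2.1 had 4.83, 4.29 and 5.79 RPKM in Cerberus-injected and 6.71, 5.35 and 8.34 RPKM in control embryos (-0.40 ± 0.15, adjusted p = 0.218). Without control 6 the count of called copies, 16 with irf5.S, was 9.

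irf5.S was the 1 near-silent copy called in a treatment comparison, of 6 that passed the filter at stage 10.5. It had 1.54, 0.434 and 1.19 RPKM in Cerberus-injected embryos and 0.319, 0.267 and 0.437 RPKM in the control embryos of their batches (log2 fold change 0.82 ± 0.19, SE). Cerberus library 2 lay within the control range. Cerberus libraries 1 and 3 were the only whole-embryo libraries of stage 10.5 with irf5.S at 1 RPKM or more, so it entered the fit through the group in which it is high, and the same control libraries chose it as near silent. The call is therefore given as a description and not as a test. In half-embryos, which the rule did not use, it had 1.197, 0.536, 0.369, 0.309 and 0.797 RPKM in dorsal half-embryos 1 to 5 and 0.509, 0.355, 0.279, 0.161 and 0.329 RPKM in ventral half-embryos 1 to 5, higher in the dorsal half-embryo of every pair, with overlapping groups, and it did not reach the filter of that fit. At stage 9, 12 near-silent copies passed the filter and limma called 0 of them in each of the 5 comparisons, with 0, 1, 1, 1 and 1 at an unadjusted p below 0.05 and 0 by voom in each.

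Both copies of cdx1 had reads in every group of stage 10.5. cdx1.L had 0.419, 0.491 and 0.920 RPKM in Wnt8-injected embryos, 0.615, 0.589 and 0.733 RPKM in Cerberus-injected embryos and 0.235, 0.336 and 0.509 RPKM in the control embryos of the same 3 batches, lowest in the control of each batch. cdx1.S had 16.4, 11.6 and 15.9 RPKM in Wnt8-injected embryos, 11.1, 4.92 and 11.5 RPKM in Cerberus-injected embryos and 19.1, 11.8 and 22.0 RPKM in those control embryos, highest in the control of each batch. In Wnt8-injected embryos the difference in cdx1.S did not pass the test (-0.23 ± 0.18, adjusted p = 0.908). By limma cdx1.S was lower in Cerberus-injected embryos (-0.94 ± 0.18, adjusted p = 0.00634), while cdx1.L did not pass the filter. The difference between copies was not tested there. The control libraries of these batches were among those by which the rule chose cdx1.L as low and cdx1.S as high. Both orders within batches go the way this choice pushes, so no opposite response of the copies is read from them. The copies also match different human genes, as given above.

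Most expressed copies had similar levels at both stages. The mean of 312 of the 346 in control embryos was within 2-fold between the separate tables of stage 10.5 and stage 9, 21 were at least 2-fold higher at stage 10.5 and 13 at least 2-fold lower, on the log2(RPKM + 0.5) scale. Of the measured pairs a2m.S averaged 27.2 RPKM at stage 10.5 and 0.839 RPKM at stage 9, cdx1.S 12.8 and 0.225 RPKM, LOC101731538-like.S 24.5 and 0.978 RPKM, and rgs16.S 16.9 and 1.13 RPKM, with near-silent partners at both stages where these are listed. Higher at stage 9 were LOC733714.L (10.4 RPKM at stage 10.5, 42.7 RPKM at stage 9), patl2.L, for an RNA-binding protein of the oocyte (18.4 and 57.2 RPKM), and taf4b.S, a TFIID subunit gene (18.3 and 47.0 RPKM). Of the 346 expressed copies 317 were at 10 RPKM or more in stage 9 control embryos. At stage 10.5 all 346 met that level by the rule, which shapes the counts of 21 and 13. No share over all entries was taken for these stage counts, so they are not read as particular to the members.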

How the data were processed

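RNA-seq of 46 libraries was analysed. Per the labels' protocols, polyA+ TruSeq libraries were read as 100-base single-end reads. The deposited values are RPKM made by the authors, per the file headers, in 1 table per stage. The submitters' processing notes list TopHat2 2.09 and DESeq, with no role. No source used here names the annotation release or the counting tool, and the identifier column is headed JGI9. Of 10 entries that repeat an identifier at stage 10.5, the first of each was kept. The stage 10.5 LiCl column numbered 3 was read as LiCl library 2, whose label names control 3. One label field of Wnt8 and Cerberus replicate 1 at stage 10.5 names an earlier stage.

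Whole reads came out of the RPKM steps for 100% of 34080 entries above 0 in at least 5 libraries of stage 10.5 and of 30836 such entries of stage 9, within 0.005 reads. The same steps give gene model lengths in bases. Limits from low reads cover counting error only.

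limma 3.58.1 in R 4.3.3 (lmFit, eBayes with trend, two-sided) was run on log2(RPKM + 0.5), a scale on which changes of low genes come out too small. Entries needed 1 RPKM in at least 2 libraries of the fit. Half-embryos were fitted without a block, and whole embryos per stage with the labelled batch (residual degrees of freedom 8, 8 and 7). Deviations of same-numbered half-embryos correlated at 0.540 to 0.901 in all 5 pairs, so the numbers pair the half-embryos, and blocked values stand beside results they change. The fits were tested on simulated data.

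Members and lists were chosen with earlier results of these data known. Named were the 10 most abundant pairs (and, added later, the 10 most abundant measured ones), up to 10 called expressed copies with the largest change in half-embryos and 6 per treatment, called near-silent copies, near-silent copies averaging 1 RPKM in a group outside the choosing controls, pairs whose order turned at stage 9, and pairs at the thresholds. Other names are examples of a role or a length, chosen after their values were seen. Alternatives were another pseudocount, no filter, another scaling, the block or batch term, voom on recovered reads, other thresholds and each library left out. Roles were read from the descriptions. No sequences are printed. Some results are not reported here.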

Additional observations from a re-analysis of the deposited data

Results flagged for a closer look

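Within groups of 4 to 10 libraries, 19 of 116 groups of named copies held a library far from the others. Many of these copies were named for high values or changes in the same libraries, so the count is not set against chance. Among half-embryos these were dorsal half-embryo 1 for LOC101731538-like.S (98.4 RPKM), a2m.S (119.8 RPKM), cmtm8-like.L (55.0 RPKM), lpar2.L (57.5 RPKM) and LOC101733888.S (52.3 RPKM), and ventral half-embryo 1 for LOC101731538-like.S (37.7 RPKM), LOC101733888.S (63.0 RPKM) and grhl3.L (157.7 RPKM). gpx1.S stood apart in dorsal half-embryo 4 (5.18 RPKM) and ventral half-embryo 4 (5.02 RPKM). Among stage 10.5 controls gpx1.S (0.926 RPKM) and scyl3.S (2.62 RPKM) each had 1 such library. Among stage 9 controls this held for scyl3.S (5.36 RPKM), lzic.S (1.99 RPKM), g0s2.S (2.65 RPKM), gpx1.S (0.719 RPKM), rgs16.S (4.11 RPKM), LOC101731538-like.S (3.31 RPKM) and ube2r2.S (14.6 RPKM).

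In 3 cases every treated library moved one way at stage 10.5 and the other way at stage 9, relative to the control of its batch. The mean log2 ratio of grhl3.L in morphants was 0.66 at stage 10.5 and -0.11 at stage 9. In Wnt8-injected embryos grhl3.L gave -1.32 at stage 10.5 and 0.27 at stage 9. lyrm4.L in LiCl-treated embryos gave -0.91 at stage 10.5 and 0.0852 at stage 9. The differences between stages were not tested.

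Dot-1 entries, which the rule does not use, were at 0.5 RPKM or more in 142 of the 153 pairs with a blank entry.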

How the results depend on the processing

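Alternatives were run for 32 called results of 22 named copies, and none of these changed direction. Of their repeats 287 kept the call and 77 lost it. This leaves aside 93 repeats without a control of a batch that holds no library of the treated group. Of those 93, 86 kept the call and 7 lost it. With the number of the half-embryos as a replicate block, 8 copies of member pairs were called between half-embryos in place of 1, and 1 pair in place of 0 in the difference between copies. Without the batch term, calls at stage 10.5 numbered 1 (morphants, 33 with it), 3 (LiCl, 64), 6 (siamois, 11), 0 (Wnt8, 1) and 6 (Cerberus, 16), and at stage 9 they numbered 0 in morphants, LiCl and siamois. Without the filter they were 0 between half-embryos, 10 in Cerberus-injected embryos of stage 10.5, and 1 in morphants and 0 in LiCl-treated embryos of stage 9. LiCl at stage 9 gave 1 with a pseudocount of 1 and 1 with voom on recovered reads, and Cerberus at stage 9 gave 4 with voom. With measured pairs only, chosen after seeing the data, calls were 0 (half-embryos), 18, 30, 5, 0 and 8 (with irf5.S) at stage 10.5. At stage 9 they were 0 (morphants), 1 (LiCl) and 0 (siamois). The cause was not tested.

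Leaving out 1 library gave 0 to 1 calls between half-embryos, fitted without the block. In whole embryos of stage 10.5 it gave 13 to 52 in morphants, 11 to 61 with LiCl, 6 to 11 with siamois, 1 to 1 with Wnt8 and 9 to 15 with Cerberus. At stage 9 it gave 0 to 3 in morphants, 0 to 1 with LiCl, 0 to 2 with siamois, 0 to 0 with Wnt8 and 0 to 2 with Cerberus, where the 2 came without Cerberus library 2. The siamois count of stage 9 was 2 without siamois library 2 and 0 without siamois library 1 or control 3, 4 or 5. For the difference between copies it stayed at 0 to 0. Near-silent copies below 0.5 RPKM at stage 9 numbered 167 to 172.

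The number of pairs was 342 to 357 with 1 control left out, 169 with limits of 20 and 0.25 RPKM and 681 with limits of 5 and 1 RPKM, of which the S entry was the near-silent or blank one in 108 and 420 (219 of 346 with the limits used). Among measured pairs, taken after seeing the data, the S copy was near silent in 44 of 73 and 282 of 466 (114 of 193 with the limits used). It was 193 when only pairs with a described or counted near-silent entry were taken. Most near-silent copies had too few reads to be tested.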
